A study of Homo sapiens with 4 samples.

Results

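The genes around MYC and PVT1 on the long arm of chromosome 8 held 43 of the 25514 H4K20me1 peaks that CUT&Tag found in Kasumi-1, a cell line from an acute myeloid leukemia with the t(8;21) translocation. CUT&Tag cuts and tags the DNA around an antibody-bound histone mark so that it can be sequenced. Members were all chromosome 8 peaks whose nearest gene was MYC, PVT1, CYRIB, TRIB1, LRATD2, CASC11, CASC8, CASC19 or CCAT2, intergenic peaks included. The genes were chosen by values of this same comparison, whose log2 fold changes and p-values were known when they were listed, so the differences given for them are a description and carry no test. The table names CYRIB and LRATD2 by their older symbols, FAM49B and FAM84B, so genes were matched by gene ID, which added 16 peaks to the 27 found under current symbols. The peaks reach from 125430101 to 130015888 on chromosome 8 of hg38, a span of 4586 kb.

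The series compared 2 libraries labelled SETD8 knockout (sgSETD8 and sgSETD8 #2), made with CRISPR/Cas9, with 2 libraries labelled WT that carry a non-targeting guide (sgNT and sgNT#2). All 4 came from Kasumi-1 cells, a single line, at 100000 cells per library, and no label says whether "#2" marks another guide or another culture. SETD8, now KMT5A, is the methyltransferase that places a single methyl group on lysine 20 of histone H4. The deposited table has 1 value per group and peak, with no library of its own, and no column names a group. The deposited comparison is titled as treated against control. If its columns follow that order the first group is the knockout, but no header states it, and the groups are called first and second by column order. Every log2 ratio is the first over the second group, so a positive value means more signal in the first.

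Reads per peak were recovered from the deposited values as described under the processing of the data. They summed to 2791207 in the first and 2682916 in the second group over all peaks, of which the member peaks held 0.43% and 0.293%. Each ratio has an exact Clopper-Pearson 95% interval for counting error alone. The table gives no spread between libraries for any value, and the intervals would be too narrow if both ends of a fragment were counted. The 3 peaks of KMT5A gave 489 and 422 reads (log2 ratio 0.27, 0.08 to 0.46), which measures the mark over that gene and not the knockout. In the authors' deposited table, 0 of 25514 peaks (0%) reached an adjusted p of 0.05 and 1292 an unadjusted one.

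H4K20me1 accumulates late in the cell cycle, up to mitosis, and is often broad over the bodies of transcribed genes. MYC encodes the basic helix-loop-helix factor that drives growth and ribosome production when paired with MAX. PVT1 is the long noncoding RNA gene next to it and hosts a cluster of microRNAs, and its promoter and MYC can draw on the same enhancers. TRIB1, upstream, encodes a pseudokinase that brings the ubiquitin ligase COP1 to the myeloid factor C/EBPα. CYRIB, at the far end, encodes a protein that binds active Rac1 and restrains the WAVE complex of actin assembly. Between TRIB1 and MYC lies a gene-poor stretch with the noncoding RNA genes CASC19, CASC8, CCAT2 and CASC11. No bases of these loci are shown.

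H4K20me1 signal was higher in the first group at most peaks of this locus, and most of that difference lay over PVT1, CYRIB and TRIB1. Summed over the 43 peaks, 12014 reads in the first and 7859 in the second group gave a log2 ratio of 0.67 (0.63 to 0.71), or 1.59-fold. The ratio was above 0 at 39 peaks and below 0 at 4, where 58.6% of all peaks in the table were above 0. The median member peak stood at 0.62, with quartiles of 0.35 and 0.83, against a median of 0.06 over the other 25471 peaks. Scaling both groups to the same total of reads moves every log2 ratio by −0.11, and then 36 member peaks and 44.8% of all peaks were above 0. At the MYC promoter the log2 ratio was 0.12 (−0.05 to 0.29).

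**Figure D1:**
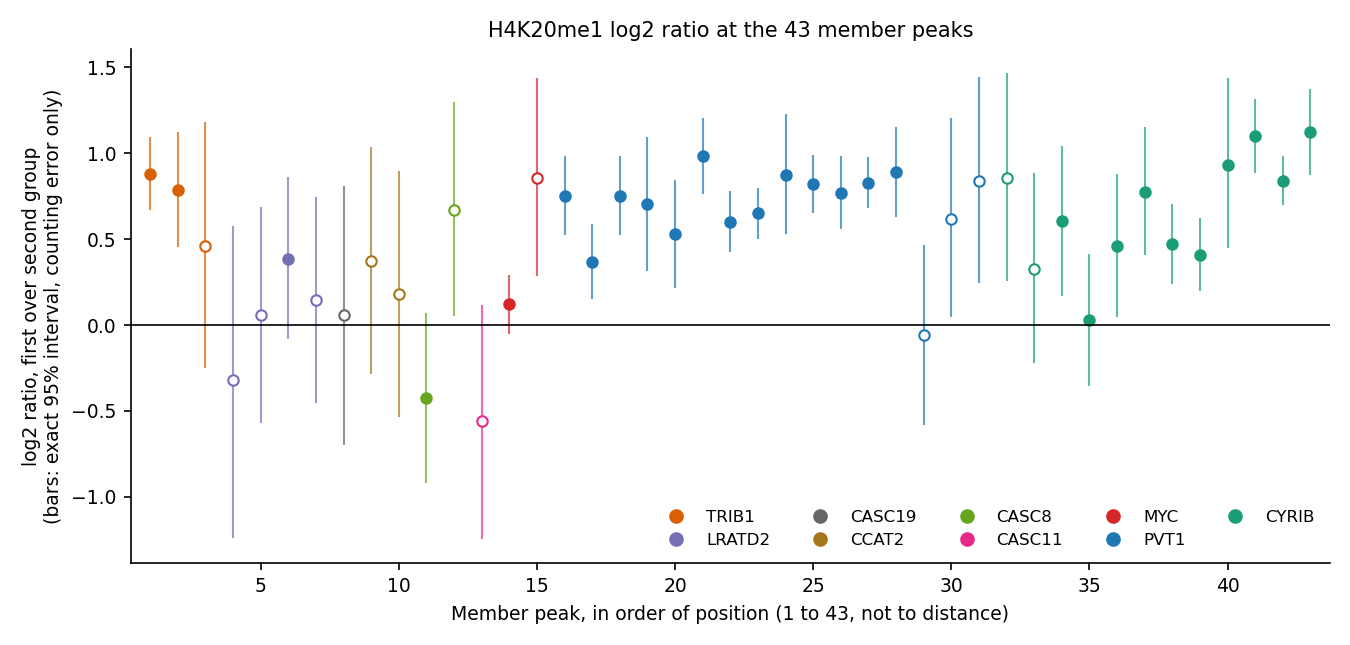
Log2 ratio of H4K20me1 reads, first over second group, at each of the 43 member peaks in order of position along chromosome 8, with exact 95% intervals for counting error. Filled points are peaks at or above the median signal of the table and open points are weaker ones. The PVT1 and CYRIB peaks lie above 0 except for 1 PVT1 peak at −0.06, while the MYC promoter peak (filled, red) lies at 0.12.

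At the upstream end, the TRIB1 promoter carried a broad peak of 3041 bp (125430101 to 125433141) with 501 reads in the first and 283 in the second group. Its log2 ratio was 0.88 (0.67 to 1.10). A second peak, 730 bp past an internal start (125434276 to 125435094), held 204 and 123 reads, a log2 ratio of 0.79 (0.46 to 1.12). The stronger of the pair had more signal than 95.8% of the 8739 promoter peaks in the table. The third peak given to TRIB1 lay 122723 bp downstream in intergenic sequence, with 41 and 31 reads, and its interval spanned 0 (0.46, −0.25 to 1.18). In the authors' deposited table the unadjusted p was 0.0123 and 0.0397 for the promoter peaks and 0.274 for the distal one.

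LRATD2, which encodes a protein with a domain related to lecithin retinol acyltransferase, held 0 peaks over its own 6.04 kb. Its 4 assigned peaks lay outside the gene, 3 of them in introns of transcripts with no gene ID. They were weak, with 20 to 88 reads in the first and 26 to 70 in the second group. Their log2 ratios ran from −0.32 to 0.39, and every interval contained 0. Summed, LRATD2 gave 204 and 189 reads, a log2 ratio of 0.17 (−0.13 to 0.46).

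The noncoding genes of the stretch before MYC were covered thinly and in both directions. CASC19 had 1 intron peak with 32 reads in each group (log2 ratio 0.06, −0.70 to 0.81). Both peaks given to CCAT2 lay outside that 1.75 kb gene, in introns of CASC21 and CASC8, and held 46 and 37 reads in the first group and 37 and 34 in the second group. Their log2 ratios of 0.37 and 0.18 had intervals that contained 0. The 2 intergenic peaks given to CASC8 went opposite ways. The nearer one (127524988 to 127526438) held 61 reads in the first and 85 in the second group, a log2 ratio of −0.42 (−0.92 to 0.07). The farther one (127604263 to 127606137) held 58 and 38 reads, a log2 ratio of 0.67 (0.05 to 1.30).

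The CASC11 peak (127694085 to 127694882) was the lowest of the 43. CASC11 is a noncoding gene read on the opposite strand just upstream of MYC, and its peak held 32 reads in the first and 49 in the second group (log2 ratio −0.56, −1.25 to 0.11). The peak lies in an intron of a longer CASC11 transcript and outside the RefSeq gene (127700608 to 127733967). Summed over CASC19, CCAT2, CASC8 and CASC11, 266 and 275 reads gave a log2 ratio of 0.01 (−0.24 to 0.26). At this depth a difference between the groups was not detectable in that sum, while the farther CASC8 peak alone had an interval above 0. That interval contained 0 when reads were halved (−0.22 to 1.58) or the columns were scaled to equal reads in peaks. In the authors' deposited table the lowest unadjusted p among these 6 peaks was 0.112.

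The MYC promoter held one of the deepest promoter peaks of the table, 3029 bp wide from 127736199 to 127739227. It had 560 reads in the first and 536 in the second group, and more signal than 98.7% of promoter peaks. The groups differed there by a log2 ratio of 0.12 (−0.05 to 0.29), with an unadjusted p of 0.729 in the authors' deposited table. The peak lies inside the RefSeq gene (127735434 to 127742951), so promoter and gene body are not told apart. A weak intergenic peak 23199 bp past the start (127759430 to 127760934) held 73 and 42 reads, a log2 ratio of 0.85 (0.29 to 1.44) and an unadjusted p of 0.0432 in the authors' deposited table. The distal peak stood above the promoter peak by 0.73 on the log2 scale (0.14 to 1.34), a description of members listed with these ratios known. Summed over both peaks, MYC gave 0.19 (0.02 to 0.35), an interval that reached 0 when reads were halved (−0.05 to 0.42) or the columns were scaled to equal reads in peaks (−0.09 to 0.24).

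PVT1 carried 16 peaks, 13 of them at or above the median signal, and 54.8% of the set's reads in the first group. Summed, they held 6580 reads in the first and 4147 in the second group, a log2 ratio of 0.72 (0.67 to 0.78), or 1.65-fold. The first 13 peaks, from 127799473 to 127978186, all lay above 0, between 0.37 and 0.98. These separate peaks covered 27.1 kb of a stretch of 179 kb, and the table holds no value outside peaks.

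The deepest PVT1 peak lay in intron 2 of a short transcript (127916218 to 127918318), with 982 reads in the first and 575 in the second group (log2 ratio 0.83, 0.68 to 0.98). It was also the densest of the 43, with 467 scaled reads per kb in the first and 263 in the second group. A peak nearer the start of the gene (127872997 to 127876957) was the widest of the set at 3961 bp, and held 917 and 608 reads (0.65, 0.50 to 0.80). The widest gap between groups within PVT1 was in intron 1 (127847590 to 127850213), with 488 and 257 reads (0.98, 0.76 to 1.21). The smallest among the strong PVT1 peaks was also in intron 1 (127808637 to 127811170), with 385 and 310 reads (0.37, 0.15 to 0.59).

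An internal start of PVT1 had a narrow promoter peak (127889983 to 127890502) with 194 reads in the first and 110 in the second group (0.88, 0.53 to 1.23). A second internal start, farther along, carried the only PVT1 peak below 0 (127987755 to 127988220), with 61 and 66 reads (−0.06, −0.58 to 0.47). It and the 2 peaks after it, in intron 4, were weak, with 193 and 149 reads in all (0.43, 0.11 to 0.75). With reads halved the interval of these 3 peaks contained 0 (−0.02 to 0.89). The first 13 peaks exceeded these last 3 by 0.30 on the log2 scale, with an interval that contained 0 (−0.02 to 0.62). The cut between the 13 and the 3 was placed with the values known, so this difference is a description and its interval tests nothing. The main start of PVT1 at 127794524 lay in no peak, and the first peak of the gene began 3440 bp past an annotated start.

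**Figure D2:**
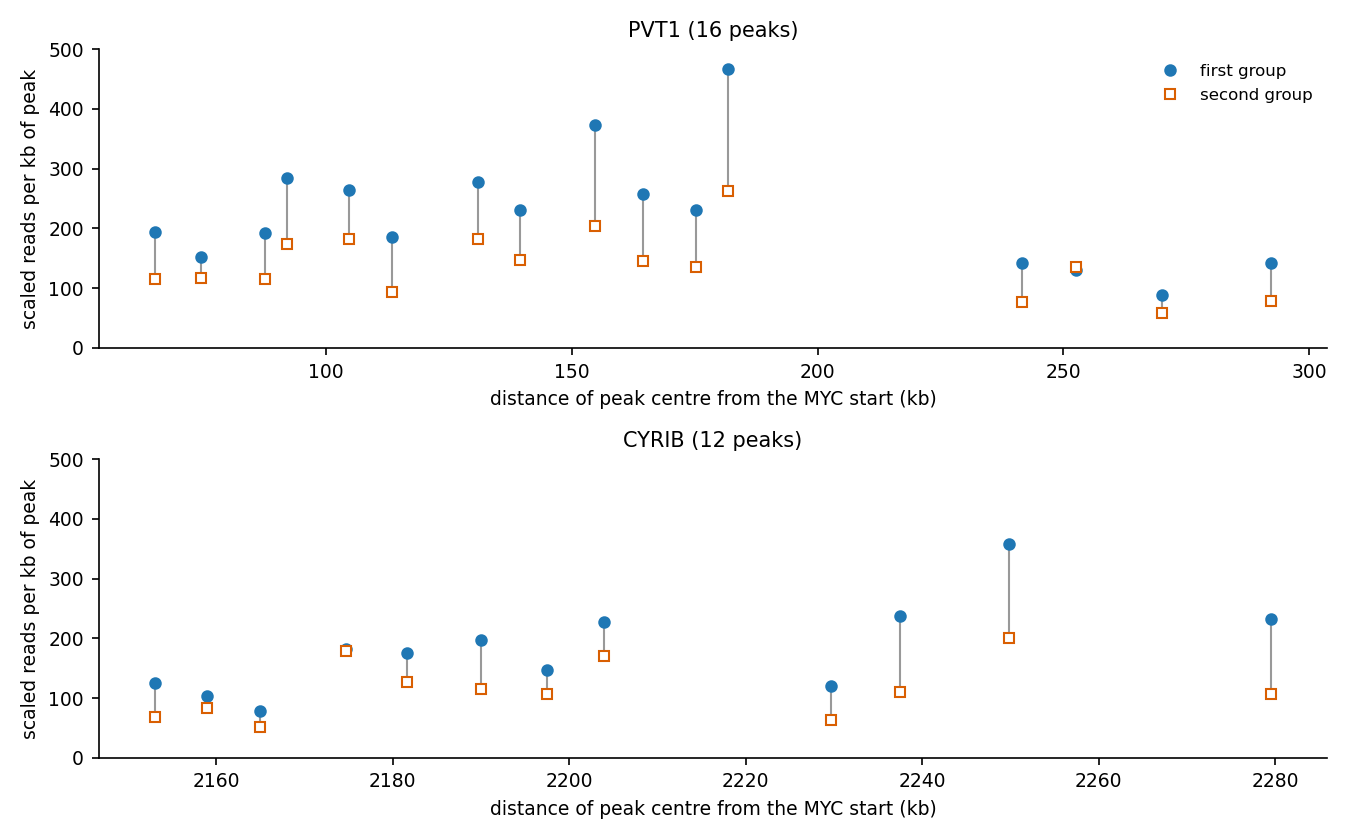
Scaled H4K20me1 reads per kb of peak in the first (filled circles) and second group (open squares) at the 16 PVT1 and 12 CYRIB peaks, against the distance of the peak centre from the MYC start in kb. The first value is the higher of the pair at 15 of 16 PVT1 and 12 of 12 CYRIB peaks, and the tallest peaks reach 467 and 359 reads per kb in the first group.

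The MYC promoter and PVT1 stood apart in log2 ratio within the same 2 columns, a contrast that no scaling between the columns can move. The PVT1 log2 ratio exceeded that of the MYC promoter by 0.60 (0.42 to 0.79). The first PVT1 peak alone, centred 65.1 kb past the MYC start with 416 reads in the first and 257 in the second group, exceeded it by 0.63 (0.34 to 0.92). The TRIB1 promoter peaks exceeded it by 0.73 (0.48 to 0.98) and CYRIB by 0.62 (0.43 to 0.81). CYRIB and PVT1 differed by 0.02, with an interval of −0.08 to 0.11. The members were listed with these ratios known, so the differences are a description and their intervals test nothing. These intervals compare 2 columns of reads and hold no spread between cultures.

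CYRIB, 1860 kb beyond the last PVT1 peak, had 12 peaks, 10 of them at or above the median signal. It is read toward MYC, so its 5′ end is the far one. Summed, 3585 reads in the first and 2233 in the second group gave a log2 ratio of 0.74 (0.66 to 0.82), or 1.67-fold. All 12 peaks were above 0 at the deposited scaling. The lowest, in intron 1 of a shorter transcript (129909803 to 129910431), held 115 and 117 reads (0.03, −0.35 to 0.42) and fell below 0 when the columns were scaled to equal reads or left unscaled.

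The CYRIB promoter peaks gave the 2 highest ratios of the 43. The outermost (130014127 to 130015888), 517 bp past an annotated start, held 410 reads in the first and 196 in the second group (1.12, 0.87 to 1.37). The outer end of the RefSeq gene, at 130017129, lay in no peak. The peak just upstream of an internal start (129971796 to 129974157) held 560 and 272 reads (1.10, 0.89 to 1.31). The promoter peak of a shorter transcript (129938488 to 129940372) held 428 and 335 reads (0.41, 0.20 to 0.62). The outermost promoter peak thus exceeded that of the shorter transcript by 0.71 (0.38 to 1.04). This pair was picked as the highest and the lowest of the CYRIB promoter peaks, so the difference is a description and its interval tests nothing. Between the 2 highest promoter peaks, in intron 1 of the long transcript, lay the deepest peak of the set (129983697 to 129986736). It held 1090 and 633 reads (0.84, 0.70 to 0.98).

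The 4 CYRIB peaks from 129964693 onward, toward the 5′ end, ran from 0.84 to 1.12. In the same stretch 2 peaks in a CYRIB intron, given to MIR5194, stood at 0.68 and 1.02. Of the 8 peaks nearer the 3′ end, 2 were high, at 0.85 for a weak peak in intron 2 of the shorter transcript (66 and 38 reads) and 0.78 for a peak in its intron 1 (163 and 99 reads). The other 6 lay between 0.03 and 0.60. The 2 high promoter peaks had unadjusted p of 0.0017 at the internal start and 0.00186 for the outermost peak in the authors' deposited table, the lowest of the 43.

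**Figure D3:**
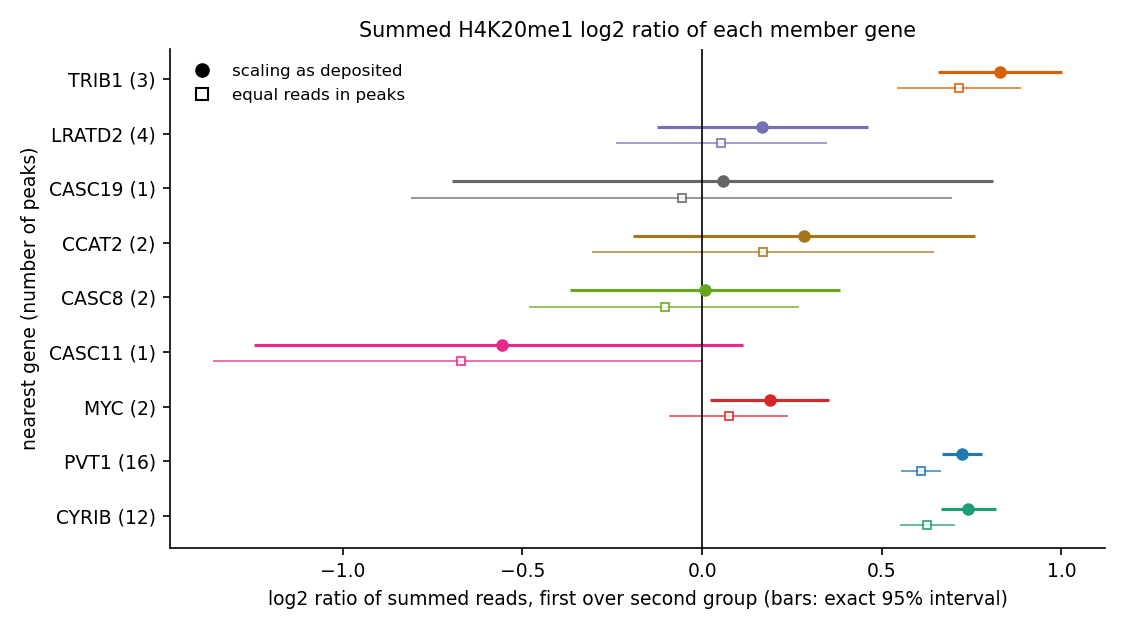
Log2 ratio of summed H4K20me1 reads, first over second group, for each member gene, with exact 95% intervals for counting error. Circles use the scaling as deposited and open squares equal reads in all peaks. TRIB1 (0.83), PVT1 (0.72) and CYRIB (0.74) stay above 0 under both, while the MYC interval contains 0 under equal reads.

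At an unadjusted p under 0.05, the authors' deposited table called 18 of the 43 peaks, all higher in the first group, where 3.37% of all peaks were called higher and 1.69% lower. They were 9 of PVT1, 6 of CYRIB, 2 of TRIB1 and the distal MYC peak. Of the 28 members at or above the median signal 15 were called, where 4.14% of all such peaks were called higher. Since the set was chosen with this contrast known and neighbouring peaks are not independent, nothing is read from that count. No member reached an adjusted p under 0.05, the lowest being 0.649 in the authors' deposited table. A log2 ratio of 1 or more was found at 2 member peaks, the CYRIB promoters, where 1.5% of all peaks were at 1 or above and 0.898% at −1 or below.

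Among the 43, wider peaks were the stronger ones (Spearman's rho 0.78 over 43 peaks that share the same 2 columns), as over all peaks of the table (0.60). Between signal and log2 ratio the correlation was 0.47 in the set and 0.14 over the table. Within PVT1 the correlation was 0.12 over 16 peaks and within CYRIB 0.16 over 12. The 28 member peaks at or above the median signal had a median log2 ratio of 0.75, and the 15 weaker ones 0.33. Over all peaks at or above the median signal of the table the median was 0.12.

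The stretch between the members was not uniformly higher. Of 60 peaks from the first to the last member peak, 17 were nearest to other genes. Of these, 4 lay inside member genes: 2 in an intron of PVT1 were given to TMEM75 (370 and 352 reads in the first, 240 and 218 in the second group) and 2 in an intron of CYRIB to MIR5194 (685 and 187 reads against 445 and 96). Their log2 ratios of 0.68, 0.75, 0.68 and 1.02 fell within the range of the strong member peaks of the same gene. The other 13 peaks, given to LINC00861 (8 peaks), LINC00824 (2 peaks), LOC101927657, PCAT1 and LINC00977, ran from −0.56 to 0.64, and 8 of them were above 0. Summed, they held 765 and 722 reads, a log2 ratio of 0.14 (−0.01 to 0.29).

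The 1860 kb between PVT1 and CYRIB held 3 peaks, given to LINC00824 and LINC00977. CCDC26, the long noncoding gene of this interval (129351694 to 129680239), whose region holds enhancers that act on MYC in blood cells, carried 0 peaks. The table thus holds no value for the mark there.

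**Figure D4:**
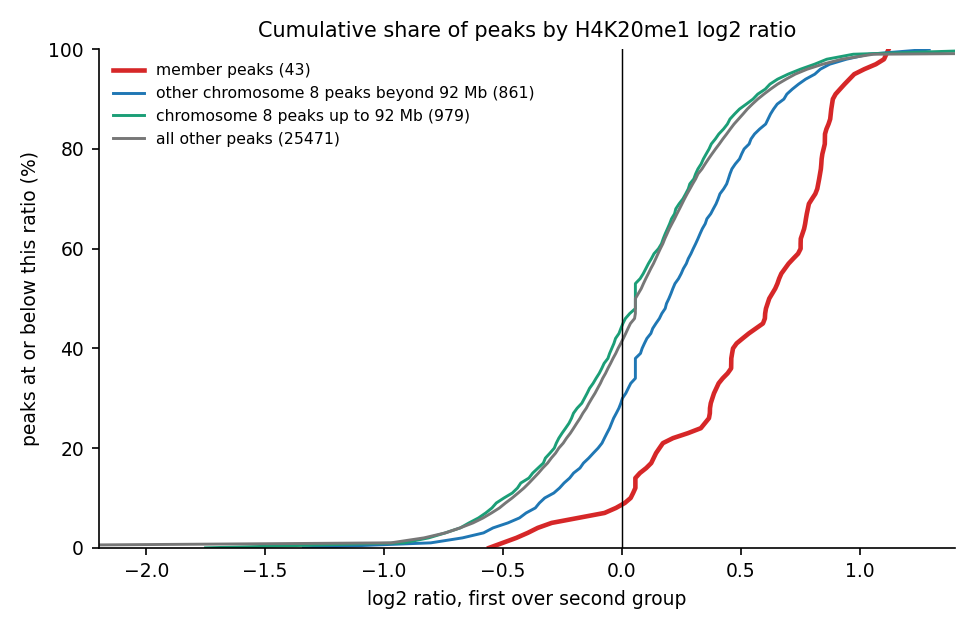
Cumulative share of peaks (percent) by log2 ratio, first over second group, for the 43 member peaks, the 861 other chromosome 8 peaks beyond 92 Mb, the 979 up to 92 Mb and all 25471 other peaks, drawn at each whole percent. The member curve lies to the right of the others over most of its height, with a median of 0.62 against 0.20, 0.06 and 0.06. The members were chosen with these values known, so the plot describes their choice.

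The other 1840 peaks of chromosome 8 had a median log2 ratio of 0.11, with 0.20 for the 861 beyond 92 Mb and 0.06, the median of the whole table, for the 979 up to there. With equal reads in peaks these medians were −0.005, 0.08 and −0.06, so the direction held beyond 92 Mb and not for the rest. Of the peaks beyond 92 Mb, the authors' deposited table called 5.23% higher at an unadjusted p under 0.05. In windows of 5 Mb counted from the MYC start, the one that holds PVT1 and CYRIB had a median of 0.37, the second highest of 28 windows with at least 20 peaks. Without its 30 member peaks its median was 0.15. The window before it, which holds TRIB1 and the noncoding genes, had 0.23, and 0.26 without its 13 members. The highest window, at 0.46, began 25 Mb before MYC.

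**Figure D5:**
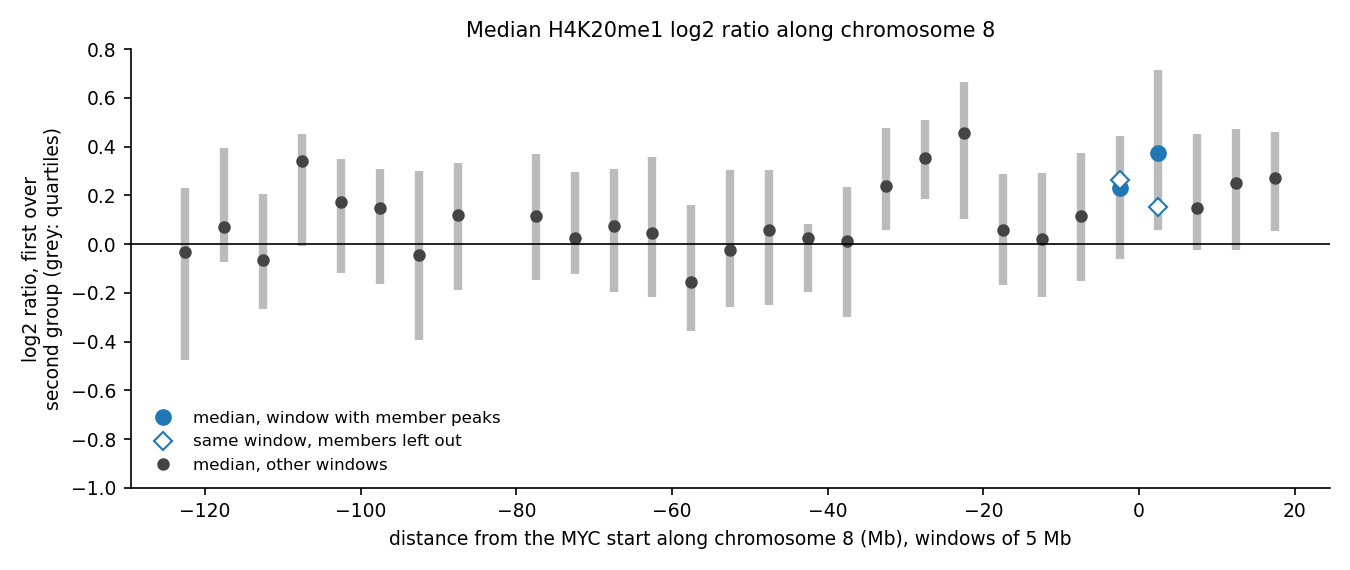
Median log2 ratio of H4K20me1 peaks, first over second group, in 5 Mb windows along chromosome 8 by distance from the MYC start, for windows with at least 20 peaks, with quartiles in grey. Blue points are the windows with member peaks (0.23 and 0.37) and open diamonds the same windows without the members (0.26 and 0.15).

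Set beside other peak-rich genes, PVT1 and CYRIB lay near the top. Of 10065 genes with a peak, 97 had more peaks than PVT1, 17 of them among the 1124 noncoding RNA genes. Of the 235 genes with 12 or more peaks, 1 (TRIO, 0.80) had a median log2 ratio above that of PVT1 (0.75) and 4 above that of CYRIB (0.69). The median of those 235 gene medians was 0.002. By summed log2 ratio, 3 of the 235 genes stood above PVT1 and 2 above CYRIB. PVT1 and CYRIB were listed with these ratios known, and 12 is the peak number of CYRIB, so the ranks describe that choice.

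Genes that work with the members gave mixed values, on 5 lists chosen with earlier results of these data known. The members MYC, TRIB1 and CYRIB stand on the MAX network, tribbles and Rac1 lists and count in their medians. Over all 10065 genes, 60.1% had a mean peak log2 ratio above 0, with a median of 0.07. With equal reads in peaks the median over all genes was −0.05, and those of the 5 lists, in the order given here, were 0.17, −0.35, 0.34, −0.04 and 0.03. In the MYC and MAX network, 8 of 13 genes had a peak, 7 of them above 0, with a median of 0.28. The authors' deposited table called 1 of 19 peaks, the distal MYC peak, at an unadjusted p under 0.05. Over all peaks it called 3.37% higher and 1.69% lower. MLXIP, a partner of MLX in glucose sensing, gave 0.74 (0.39 to 1.09) at an intron peak with 180 and 112 reads. The mean of MLXIP over 4 peaks was 0.37. MNT, a MAX-binding repressor, gave 0.74 (0.31 to 1.17) at its promoter with 120 and 75 reads. MYCN, MYCL and MAX had no peak nearest to them.

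The factors of MYC protein turnover stood lower, with 2 of 8 measured genes above 0 and a median of −0.24. GSK3B, the kinase that marks MYC for degradation, gave 0.95 (0.59 to 1.32) at an intron peak with 184 and 99 reads. Its mean over 6 peaks was 0.38. USP36, a nucleolar deubiquitinase, gave −0.89 (−1.28 to −0.51) at a 3′ UTR peak with 88 and 170 reads, and its mean over 4 peaks was −0.31. Of the 22 peaks of this turnover list the authors' deposited table called 1 higher and 1 lower at an unadjusted p under 0.05. Of 8 genes of the tribbles pathway 4 had a peak, 3 above 0 with a list median of 0.45, and TRIB3, a relative of TRIB1, gave 0.98 (0.67 to 1.29) at its promoter with 254 and 134 reads. TRIB1 was the other gene named by size of difference. The list median includes TRIB1 itself, a member with a mean of 0.71, beside 0.98 for TRIB3, 0.20 for COP1 and −0.41 for MAP2K1. Of the 8 peaks of this list the authors' deposited table called 4 higher and 0 lower at an unadjusted p under 0.05. Of those called, 2 were TRIB1 peaks. COP1, the ligase that TRIB1 recruits, was named after its values were seen and gave −0.46 (−0.73 to −0.19) at its promoter with 199 and 285 reads, though its mean over 3 peaks was 0.20.

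The Rac1 and WAVE pathway had 7 of 11 measured genes above 0 and a median of 0.07. Ranked by the largest ratio in size at a peak of at least median signal, CYRIB itself came first. ABI1, a subunit of the WAVE complex, followed at 0.94 (0.57 to 1.32) with 172 and 93 reads. By mean over its peaks CYFIP1 was highest, at 0.78 over 2 peaks, above CYRIB at 0.66, NCKAP1 at 0.49 and ABI1 at 0.45. At an unadjusted p under 0.05 the authors' deposited table called 9 of 41 peaks of this list higher, 6 of them of CYRIB, and 1 lower. CYRIA, the closest relative of CYRIB, had a mean of −0.47 over 6 peaks and was named after its value was seen. Among 20 MYC target genes, 9 had a peak, 6 above 0, and the median was 0.15. The authors' deposited table called 1 of their 16 peaks higher and 0 lower at an unadjusted p under 0.05. TFRC, the transferrin receptor, gave 0.83 (0.44 to 1.22) at its promoter with 152 and 89 reads, though its mean over 4 peaks was −0.23. NPM1, the nucleolar chaperone, gave 0.51 (0.07 to 0.96) at its promoter with 104 and 76 reads, and its mean over 4 peaks was 0.29.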

How the data were processed

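H4K20me1 CUT&Tag was done on 2 SETD8 knockout and 2 non-targeting control libraries of Kasumi-1 cells. Per the submitters' processing notes, cutadapt, Bowtie2 and build hg38 were used for all 4 libraries, and DESeq is named for 1 library of each group, so the table may rest on those 2. Versions, duplicate handling and the peak caller: not given in the sources used here. The deposited table gives, for 2 unnamed groups, log2 values of scaled reads at each peak, with their log2 mean, log2 fold change, and p-values before and after adjustment. Its peak widths (another column holds width plus 1) were taken as deposited by the authors. There were 0 columns of single libraries.

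All low values in the deposited log2 columns (1.5 to 5.5) equalled log2 of a whole number plus 1 constant per column, 0 for the first and −0.057 for the second group, within 0.0051. Reads were recovered with these constants and are exact only for weak peaks, since values rounded to 0.01 fix a read number within 0.35%. Log2 ratios keep the deposited scaling and matched the authors' deposited fold change within 0.012 at member peaks. Differences between 2 sets of peaks have exact conditional intervals of the odds ratio. PCR duplicates may be among the reads, so intervals cover counting error only. No test was made, since each group has 1 value.

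Members and gene lists were chosen with earlier results of these data known. Genes were matched by gene ID in the RefSeq table of GRCh38.p14, which found 9 of 9 members. Named genes were all members with their peaks, the symbols between them, and per list the 2 genes with the largest log2 ratio in size at peaks of at least median signal. The recovery of reads and the intervals were tested on simulated data. Alternatives covered scaling, signal, annotation, assignment and thresholds. Python 3.11.15, scipy 1.17.1, pandas 2.3.3 and numpy 2.4.6 were used. A control library without antibody and spiked-in DNA were not used here, so a uniform change of the mark cannot show.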

Additional observations from a re-analysis of the deposited data

How the results depend on the processing

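No paired analysis was possible because the table has 1 column per group, and for the same reason no library could be left out. The summed log2 ratio of the member peaks (0.67) was 0.56 with equal reads in all peaks, 0.61 with no scaling and 0.61 without PVT1. Scaling subtracts 1 constant from every ratio. Peaks above 0 numbered 24 in place of 39 without PVT1 (of 27) and 24 under current symbols alone (of 27), as fewer peaks are counted. Peaks called in the authors' deposited table at an unadjusted p under 0.05 (18) numbered 9 without PVT1, 3 at an unadjusted p under 0.01 and 0 at an adjusted p under 0.05. The share of all peaks under 0.01 was not computed, so nothing is read from that count. Peaks with a log2 ratio of 1 or more in size (2) numbered 26 at a limit of 0.5 and 0 under current symbols alone, since both lie in CYRIB. Of all other peaks, 87% lay at or below a log2 ratio of 0.51 and 8% at or below −0.51. Of 49 alternative values of single genes 45 stayed within the counting interval, but many of them could not leave it. Halving the reads keeps the ratio, and the annotation and host gene alternatives left several genes with the same peaks. The 4 values outside the interval were PVT1 under both scalings (0.61 and 0.67), CYRIB with equal reads (0.63) and CASC8 at its peak of at least median signal (−0.42). The host gene, current symbol and matched signal alternatives were chosen after seeing the data. Depth limits the peaks of CASC19, CCAT2, CASC8, CASC11 and LRATD2, with 20 to 88 reads in the first group.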
